A study of Mus musculus with 10 samples.

Results

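Amph, Cxxc4, Nell1, Vat1l, Ism1, Kazald1, Spock2, Scube3, Rasef and Fat3 are 10 of the 34607 gene names on a mouse expression array that was hybridised with RNA of nephron progenitors. They were chosen by the array signals described here, for a strong signal in progenitors of the newborn kidney or for loss of signal in culture, among genes less known than the usual progenitor markers. No numeric threshold was part of that choice. The 10 genes are therefore described by their values with no test, and the tests below concern only other genes. All 10 passed the filter on low signal, which kept 26253 genes.

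RNA was measured on 10 single-colour arrays, 2 for each of 5 groups of cells, all from mice with a Six2-GFP transgene on a C57BL6J/ICR background. E11.5 progenitors were GFP-positive cells sorted from embryos, and 8-day and 19-day culture held such cells after those times in conditioned medium. P0 progenitors and P0 non-progenitors were the GFP-positive and the GFP-negative cells sorted from newborns. GFP marks cells through the transgene, so a cell counts here as a progenitor by its GFP signal, and a second sort after culture is not stated in the labels. Nothing in the labels says that replicates came from separate animals or cultures, and p-values then measure only the spread between these samples, which may be technical.

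Nephron progenitors are the mesenchymal cells that cap the tips of the branching ureteric bud, and every nephron of the kidney is built from them. The transcription factor Six2 keeps them undifferentiated, while Wnt signals from the bud both sustain them and start their conversion into epithelium. Such cells receive and send many secreted signals, and culture outside the kidney removes the bud and the stroma around them. Of the 10 genes, Nell1, Spock2, Ism1, Kazald1 and Scube3 encode secreted proteins, Amph, Vat1l, Rasef and Cxxc4 encode intracellular proteins, and Fat3 encodes a large cadherin of the cell surface.

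The 10 genes lie on 10 different chromosomes, so none of them share a local neighbourhood. RefSeq promoter windows on GRCm38.p6, running from 250 bases before to 50 bases after the start the RefSeq table uses, were matched for 9 of the 10 genes, with 10 windows since Kazald1 has a pair. In 8 of the 10 windows the upstream bases overlap an annotated transcript of the same gene, so these windows need not lie before its first base. The windows' median GC content was 61.5%, with a range of 52.3% to 72.3%, beside a median of 52.7% over all 32851 windows. Nell1 and Spock2, which share the same order of means over the 5 groups (below, with its limits), are printed here because their upstream bases touch no annotated transcript of the gene. The Nell1 stretch is chr7:49975100-49975349 and the Spock2 stretch chr10:60106007-60106256, both on the plus strand and 5′ to 3′, with capitals for a CCAAT or GGGCGG match on either strand.
Nell1: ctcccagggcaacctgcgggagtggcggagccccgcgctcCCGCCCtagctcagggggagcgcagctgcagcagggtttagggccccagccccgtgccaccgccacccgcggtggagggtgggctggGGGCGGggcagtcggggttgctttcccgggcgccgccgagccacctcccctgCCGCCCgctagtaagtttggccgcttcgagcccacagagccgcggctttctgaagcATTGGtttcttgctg
Spock2: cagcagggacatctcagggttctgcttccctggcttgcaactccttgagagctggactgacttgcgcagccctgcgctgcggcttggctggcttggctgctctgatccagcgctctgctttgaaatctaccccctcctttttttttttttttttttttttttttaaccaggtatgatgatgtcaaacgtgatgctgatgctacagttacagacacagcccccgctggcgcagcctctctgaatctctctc

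Both strands of each window were searched for 5 motifs, none of which contains another. The GC box, GGGCGG, was in 4 of the 10 windows, those of Cxxc4, Nell1 and Kazald1 (both windows), and in 35.7% of all windows. The CCAAT box, CCAAT, was in 3 of 10, those of Cxxc4, Nell1 and Rasef, and in 37.4% of all windows. The letters TCAGGTTTC, the MEF3 site that Six2 and its relatives can bind, were in 0 of 10 and in 0.429% of all windows. CTTTGAT, a site of the Wnt effectors TCF and LEF, was in 0 of 10 and in 3.73% of all windows, and TATAAA in 0 of 10 and in 13.6%. A match in these letters is a description of the window and does not show binding.

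Between 60.4% and 69.8% of the 59305 non-control spots per array were well above background, and no spot was saturated. Signals are given below as log2 levels, the log2 intensity minus that array's 75th percentile. Levels of different genes come from different probes and are not set against each other. Six2 itself had log2 levels of 4.27 and 4.11 in P0 progenitors, against -2.26 and -4.55 in P0 non-progenitors, and was higher in P0 progenitors by 7.59. These cells were sorted by Six2-GFP, so that difference describes the sort and is not a test. The mean log2 level of 12 nephron progenitor markers was 3.42 to 3.78 in E11.5 progenitors, 1.79 to 2.04 in 8-day culture and -0.96 to 0.27 in 19-day culture, and it was 3.78 to 3.81 in P0 progenitors and 0.88 to 1.06 in P0 non-progenitors. Eya1, 1 of these 12 markers, read 9.24 to 9.74 on all 10 arrays and so entered each of these means at a nearly constant, high level. The lower mean in 8-day culture was not shared by all 12 markers. Six2 read 5.21 and 4.61 in 8-day culture, against 4.7 and 4.82 in E11.5 progenitors. The mean of 10 stromal markers was -1.26 to -0.96 in E11.5 progenitors, -0.27 to -0.13 in 8-day culture and 1.76 to 2.35 in 19-day culture, and it was -1.34 to -1 in P0 progenitors and 3.24 to 3.25 in P0 non-progenitors. Foxd1, 1 of these 10, ran the other way in culture. It read 3.83 and 3.2 in E11.5 progenitors, -6.16 and -2.63 in 8-day culture and -2 and -4.87 in 19-day culture. At each culture time 1 of its arrays was well above background. Counts of stromal markers higher and lower at 19 days are given below. In bulk RNA, fewer cells of a type and less RNA per cell cannot be told apart.

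**Figure D1:**
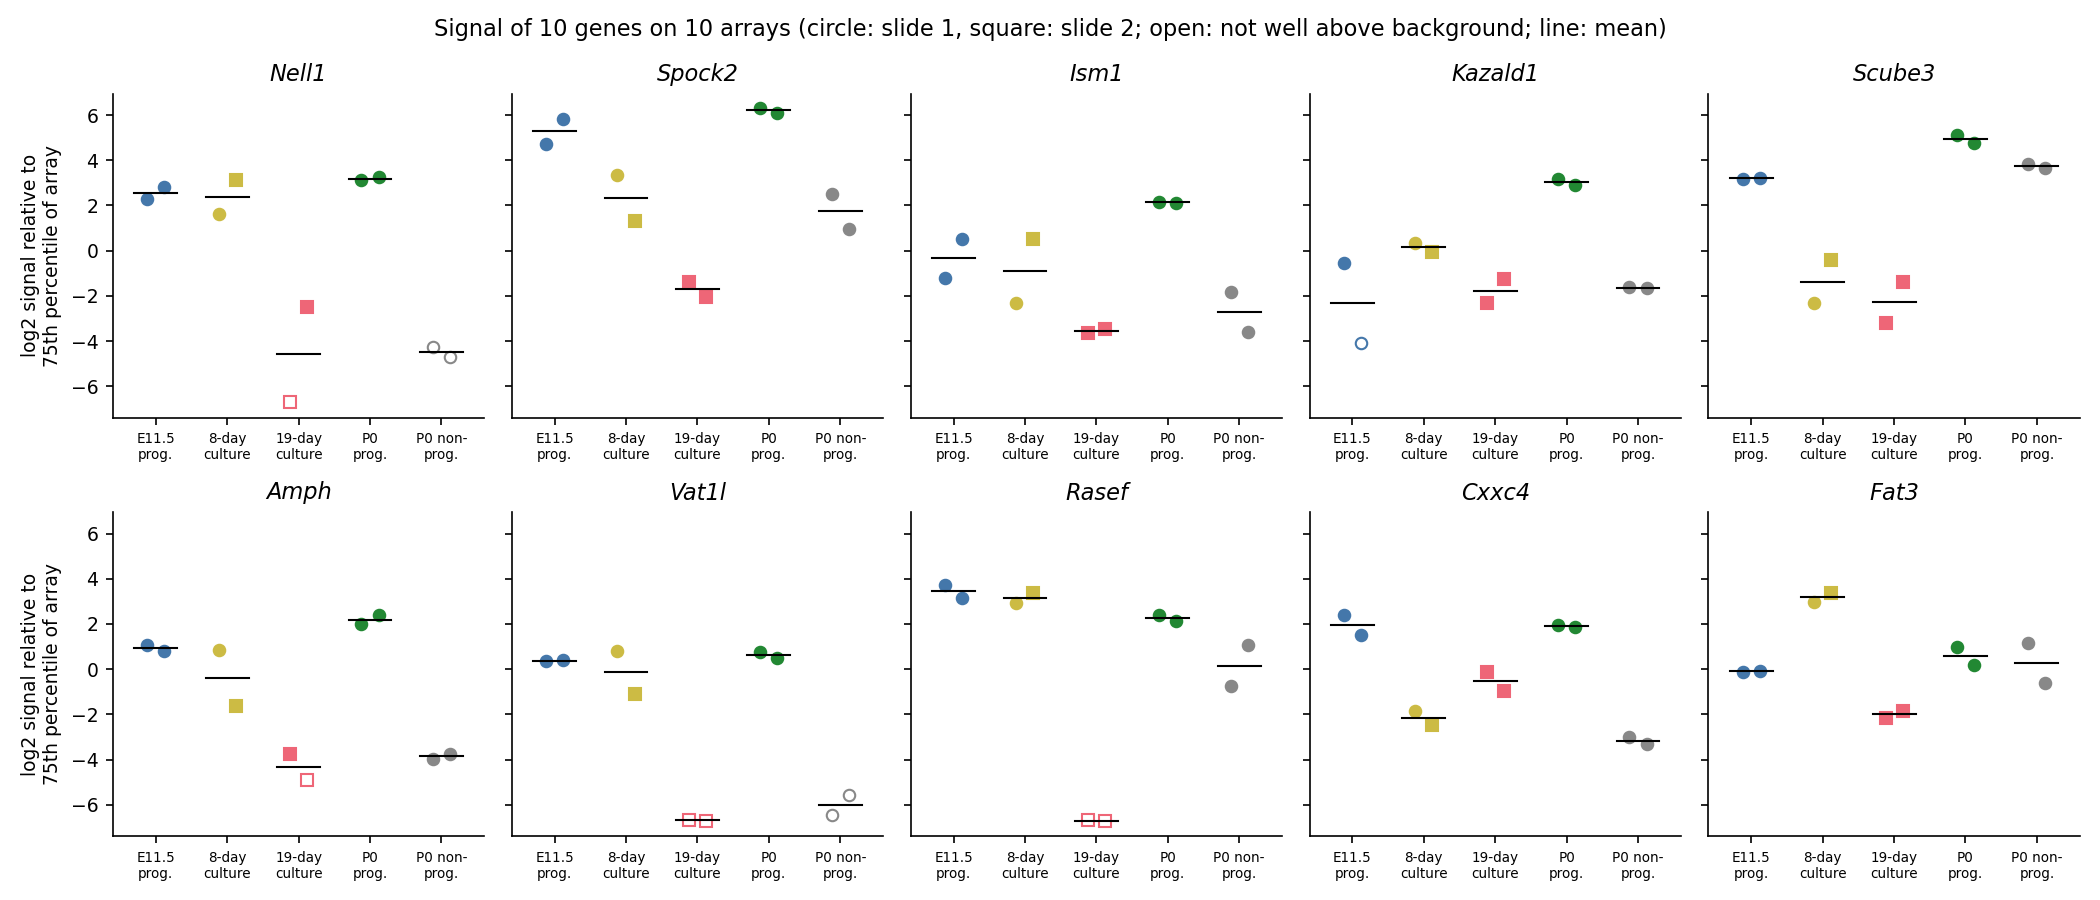
Log2 signal relative to the array's 75th percentile (y axis) of the 10 genes in the 5 groups (x axis), with 1 point per array, a line at the group mean, circles for slide 1, squares for slide 2 and open points for signals not well above background. Amph, Nell1, Vat1l and Rasef have an open point in 19-day culture, while all 20 points of P0 progenitors are filled.

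Nell1 encodes a secreted protein with a thrombospondin-like domain and EGF repeats that is known for promoting bone formation. Its log2 levels were 2.29 and 2.83 in E11.5 progenitors, 1.64 and 3.11 in 8-day culture and -6.68 and -2.5 in 19-day culture. They were 3.12 and 3.24 in P0 progenitors, against -4.25 and -4.69 in P0 non-progenitors. The 8-day arrays lay on both sides of the E11.5 arrays, whereas both 19-day arrays lay below all of them. Only the second 19-day array was well above background, and neither P0 non-progenitor array was. The 19-day mean minus the 8-day mean was -6.97 ± 1.18 (log2 difference ± SE of the fit, as in the rest of the text, n = 2 each), with a 19-day pair 4.18 apart. With the undetected 19-day array set to its lowest spot signal well above background, the difference was -5.95, or 61.6-fold lower at 19 days. Nell1 signal in P0 progenitors was at least 201-fold higher than in P0 non-progenitors. Such a bound sets each array of the dim group to that lowest signal, or to the probe's own signal where that is higher. For Nell1 at P0 it equals the fold between the means. All such bounds hold for the main processing only, and other processing can give less. With normexp background correction (offset 50), this Nell1 log2 difference was 5.06, against 7.65 in the main processing.

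Spock2 encodes testican 2, a secreted proteoglycan of the SPARC family. Its log2 levels were 4.73 and 5.82 in E11.5 progenitors, 3.36 and 1.32 in 8-day culture and -1.38 and -2.05 in 19-day culture. In P0 progenitors they were 6.3 and 6.11, against 2.51 and 0.97 in P0 non-progenitors. The 3 stages of culture did not overlap, and Spock2 was the only gene of the 10 with a separate, lower range at each step from E11.5 to day 8 to day 19. The log2 difference was -2.93 ± 0.75 for 8-day culture against E11.5 progenitors, 7.64-fold lower, and -4.06 ± 0.75 for 19-day against 8-day culture, 16.6-fold lower. All 10 arrays were well above background for this gene, and P0 progenitors exceeded P0 non-progenitors by 4.46 ± 0.75, or 22.1-fold.

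Ism1 encodes isthmin 1, a secreted protein with a thrombospondin repeat. For this gene the log2 levels were -1.22 and 0.53 in E11.5 progenitors, -2.33 and 0.5 in 8-day culture and -3.64 and -3.47 in 19-day culture. In P0 progenitors they were 2.17 and 2.1, against -1.83 and -3.59 in P0 non-progenitors. The P0 progenitor arrays were above the other 8 arrays, and the 8-day arrays overlapped the E11.5 arrays. In 19-day culture against E11.5 progenitors the log2 difference was -3.21 ± 1, 9.24-fold lower, while the 8-day replicates differed from each other by 2.83. P0 progenitors exceeded P0 non-progenitors by 4.84 ± 1, or 28.7-fold, and E11.5 progenitors by 2.48 ± 1, or 5.57-fold.

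Kazald1 encodes a secreted protein with an IGF-binding-protein-like domain and a Kazal-type domain. Its log2 levels were -0.53 and -4.09 in E11.5 progenitors, of which the second was not well above background. In culture they were 0.34 and -0.05 at 8 days and -2.33 and -1.26 at 19 days, so that the 8-day arrays lay above both E11.5 arrays. P0 progenitors had 3.15 and 2.9, against -1.62 and -1.64 in P0 non-progenitors, and lay above the other 8 arrays. Kazald1 had a log2 difference of -1.94 ± 1 in 19-day against 8-day culture, 3.85-fold lower, but its 19-day levels lay inside the range of the E11.5 pair. It had the largest difference of the 10 genes between P0 and E11.5 progenitors, 5.33 ± 1 higher at P0, which depends on the E11.5 replicates, 3.56 apart: without E11.5 replicate 1 the difference was 7.11 and without E11.5 replicate 2 it was 3.55.

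Scube3 encodes a secreted protein with EGF repeats and a CUB domain, and the array carries 3 probes for it. On probe 1, the brightest, its log2 levels were 3.17 and 3.23 in E11.5 progenitors, -2.31 and -0.43 in 8-day culture and -3.2 and -1.37 in 19-day culture. On the same probe they were 5.11 and 4.76 in P0 progenitors, against 3.83 and 3.67 in P0 non-progenitors. All 6 arrays of freshly sorted cells were thus above all 4 culture arrays, and the 8-day and 19-day arrays overlapped. In 8-day culture against E11.5 progenitors the log2 difference was -4.57 ± 0.71, 23.7-fold lower, while P0 progenitors exceeded P0 non-progenitors by 1.19 ± 0.71, or 2.28-fold. Among the 10 genes, only Scube3, Kazald1 and Fat3 had a higher mean in P0 non-progenitors than in E11.5 progenitors, and only for Scube3 did these groups not overlap.

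Probe 2 of Scube3 gave log2 levels of 1.12 and 1.21 in E11.5 progenitors, -2.54 and -6.59 in 8-day culture and -3.51 and -2.64 in 19-day culture. P0 progenitors had 2.68 and 3.12 on it, against 2.09 and 1.64 in P0 non-progenitors, so its groups stood in nearly the same order as on probe 1. Probe 3 did not follow: its log2 levels were -3.77 and 0.83 in E11.5 progenitors, -3.83 and -3.33 in 8-day culture and -2.49 and -2.75 in 19-day culture. On probe 3, P0 progenitors had -3.85 and -3.68, against -3.87 and -3.4 in P0 non-progenitors. The E11.5 replicates differed by over 4 log2 units on probe 3, and 9 of its 10 arrays lay below -2. Averaging the 3 probes turned the 19-day against 8-day difference to 0.51, against -0.92 on probe 1. Both probes that disagree are printed as the array design gives them, with no letters singled out, probe 1 at chr17:28308201-28308260 and probe 3 at chr17:28305413-28305472 of mm9, both on the plus strand. No exon map of that build was used here.
Scube3 probe 1: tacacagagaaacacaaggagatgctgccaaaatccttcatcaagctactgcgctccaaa
Scube3 probe 3: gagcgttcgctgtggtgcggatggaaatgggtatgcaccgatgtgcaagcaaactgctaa

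Amph encodes amphiphysin, a BAR-domain protein that links clathrin coats to dynamin during endocytosis in nerve endings. Amph had log2 levels of 1.06 and 0.82 in E11.5 progenitors, 0.87 and -1.62 in 8-day culture and -3.77 and -4.88 in 19-day culture. They were 2.01 and 2.38 in P0 progenitors, against -3.98 and -3.74 in P0 non-progenitors. The first 8-day array was within the E11.5 range and the second was 2.49 lower, while the second 19-day array was not well above background. The log2 difference was -3.96 ± 0.76 in 19-day against 8-day culture, 14.6-fold lower with the undetected array at its lowest signal above background, and 6.05 ± 0.76 in P0 progenitors against P0 non-progenitors, 66.3-fold higher.

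Vat1l encodes a protein related to the vesicle protein VAT1 and to quinone oxidoreductases. The log2 levels of Vat1l were 0.35 and 0.4 in E11.5 progenitors, 0.8 and -1.08 in 8-day culture and -6.66 and -6.72 in 19-day culture. In P0 progenitors they were 0.77 and 0.49, against -6.43 and -5.57 in P0 non-progenitors. It was not well above background on any 19-day or P0 non-progenitor array, and was well above it on the other 6. The signal in 19-day culture was at least 23.2-fold lower than in 8-day culture and at least 33.2-fold lower than in E11.5 progenitors. In P0 progenitors it was at least 36.1-fold higher than in P0 non-progenitors. In log2 these 3 bounds are -4.54, -5.05 and 5.17. With normexp (offset 50) the differences were smaller than the bounds, at -2.61, -2.95 and 2.9.

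Rasef encodes a Rab GTPase with EF-hand domains, of the family that directs vesicle traffic. Its log2 levels were 3.73 and 3.16 in E11.5 progenitors, 2.93 and 3.39 in 8-day culture and -6.66 and -6.73 in 19-day culture. In P0 progenitors they were 2.41 and 2.13, against -0.75 and 1.06 in P0 non-progenitors. The E11.5 and 8-day arrays overlapped, and the 2 arrays at 19 days were the only ones of 10 not well above background. Rasef signal in 19-day culture was at least 229-fold lower than in 8-day culture and at least 279-fold lower than in E11.5 progenitors. In log2 these bounds are -7.83 and -8.12. With normexp (offset 50) the differences were smaller than the bounds, at -5.5 and -5.75. On the brightest probe of each gene, Rasef was also the only gene of the 10 with P0 progenitors wholly below E11.5 progenitors. Its log2 difference there was -1.18 ± 0.55, 2.26-fold lower.

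Cxxc4 encodes IDAX, a CXXC zinc finger protein that binds Dishevelled and restrains Wnt signalling. On probe 1 its log2 levels were 2.39 and 1.53 in E11.5 progenitors, -1.86 and -2.48 in 8-day culture and -0.11 and -0.96 in 19-day culture. They were 1.96 and 1.88 in P0 progenitors, against -2.98 and -3.33 in P0 non-progenitors. The lowest point of the culture series was thus day 8. On the brightest probe of each gene, Cxxc4 was the only gene of the 10 with 19-day arrays above the 8-day arrays. The log2 difference was -4.13 ± 0.43 in 8-day culture against E11.5 progenitors, 17.5-fold lower, and 1.64 ± 0.43 in 19-day against 8-day culture, 3.11-fold higher.

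Probe 2 of Cxxc4 gave log2 levels of 1.56 and 1.82 in E11.5 progenitors, -2.37 and -2.6 in 8-day culture and -1.57 and -1.31 in 19-day culture, the same order as probe 1. On it P0 progenitors had 1.03 and 1.12, against -3.24 and -3.55 in P0 non-progenitors. Probe 3 was well above background on 3 of 10 arrays only, both of P0 progenitors at -2.61 and -2.71 and the second of E11.5 progenitors at -2.25. In P0 progenitors against P0 non-progenitors, probes 1 and 2 differed by 5.08 and 4.47, and probe 3 was at least 3.69-fold higher.

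Fat3 encodes an atypical cadherin of the Fat family, which takes part in planar polarity and in the growth of neurites. On probe 1 its log2 levels were -0.13 and -0.07 in E11.5 progenitors, 2.99 and 3.37 in 8-day culture and -2.16 and -1.84 in 19-day culture. In P0 progenitors they were 0.99 and 0.19, against 1.14 and -0.59 in P0 non-progenitors, and these groups overlapped. Both 8-day arrays were the highest of the 10 and both 19-day arrays the lowest. Fat3 was higher in 8-day culture than in E11.5 progenitors by 3.28 ± 0.55, or 9.69-fold. Its 19-day against 8-day difference was -5.18 ± 0.55, 36.3-fold lower. The dimmer probe 2 was well above background only in 8-day culture, at -0.6 and -1.98, and in P0 progenitors, at -3.74 and -3.16, and was at least 10.4-fold lower in 19-day than in 8-day culture. On probe 2 P0 progenitors lay wholly above P0 non-progenitors, at least 2.14-fold higher.

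**Figure D2:**
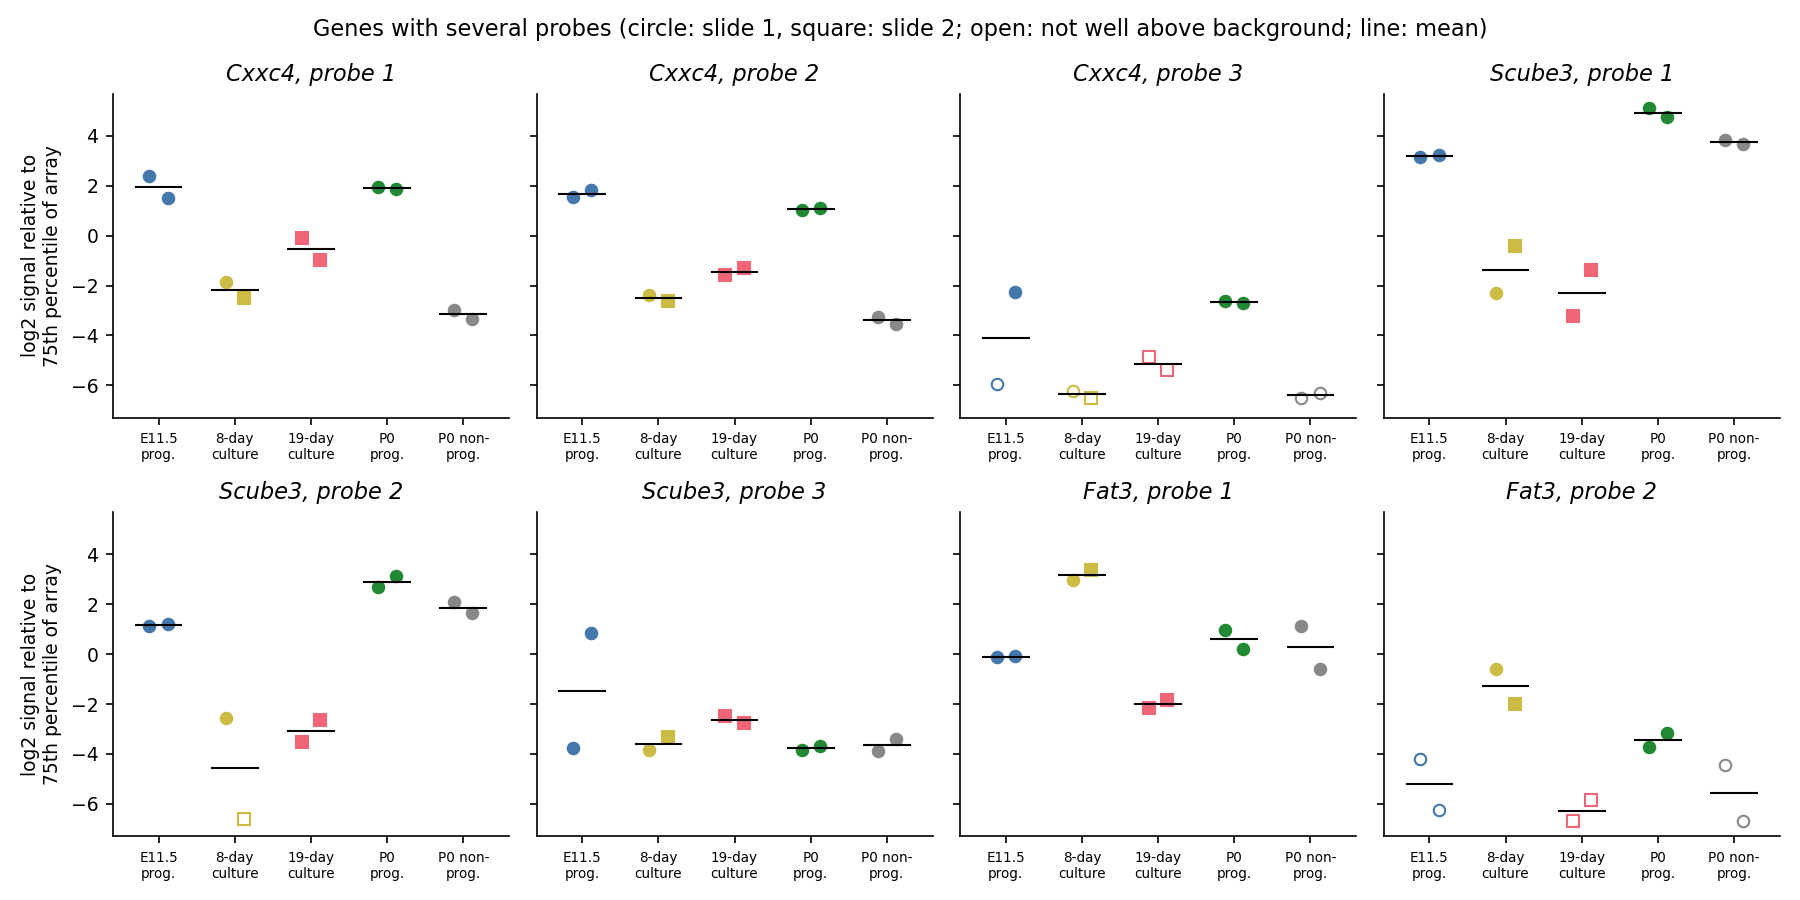
Log2 signal relative to the array's 75th percentile (y axis) of each probe of Cxxc4, Scube3 and Fat3 in the 5 groups (x axis), with 1 point per array, a line at the group mean, circles for slide 1, squares for slide 2 and open points for signals not well above background. Probe 3 of Scube3 lies below -2 on 9 of 10 arrays and does not show the drop in culture of probes 1 and 2.

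In culture, the 10 genes differed in the time at which their signal was low. At 8 days, the arrays of Cxxc4, Spock2 and Scube3 lay wholly below those of E11.5 progenitors (3 of 10 genes, beside 21% of all genes), and those of Kazald1 and Fat3 wholly above (2 of 10, beside 24.5%). The other 5 genes, Amph, Nell1, Vat1l, Ism1 and Rasef, overlapped at 8 days, with mean log2 differences between -1.32 and -0.18. At 19 days, 9 of 10 genes lay wholly below E11.5 progenitors, beside 30% of all genes, and the exception was Kazald1 (with 30.1% of all genes wholly higher). From 8 to 19 days, 8 of 10 genes were wholly lower, beside 27.5% of all genes, Cxxc4 was wholly higher (25.6% of all genes) and Scube3 overlapped. The median log2 difference of the 10 genes was -0.54 in 8-day culture against E11.5 progenitors, -5.38 in 19-day culture against E11.5 progenitors and -4.01 in 19-day against 8-day culture, beside medians of 0.02, 0.01 and -0.01 over all genes. With arrays not well above background set to their lowest signal above it, the medians were -0.54, -5.12 and -3.96. These contrasts helped to choose the genes, and the first and the second share the E11.5 arrays.

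**Figure D3:**
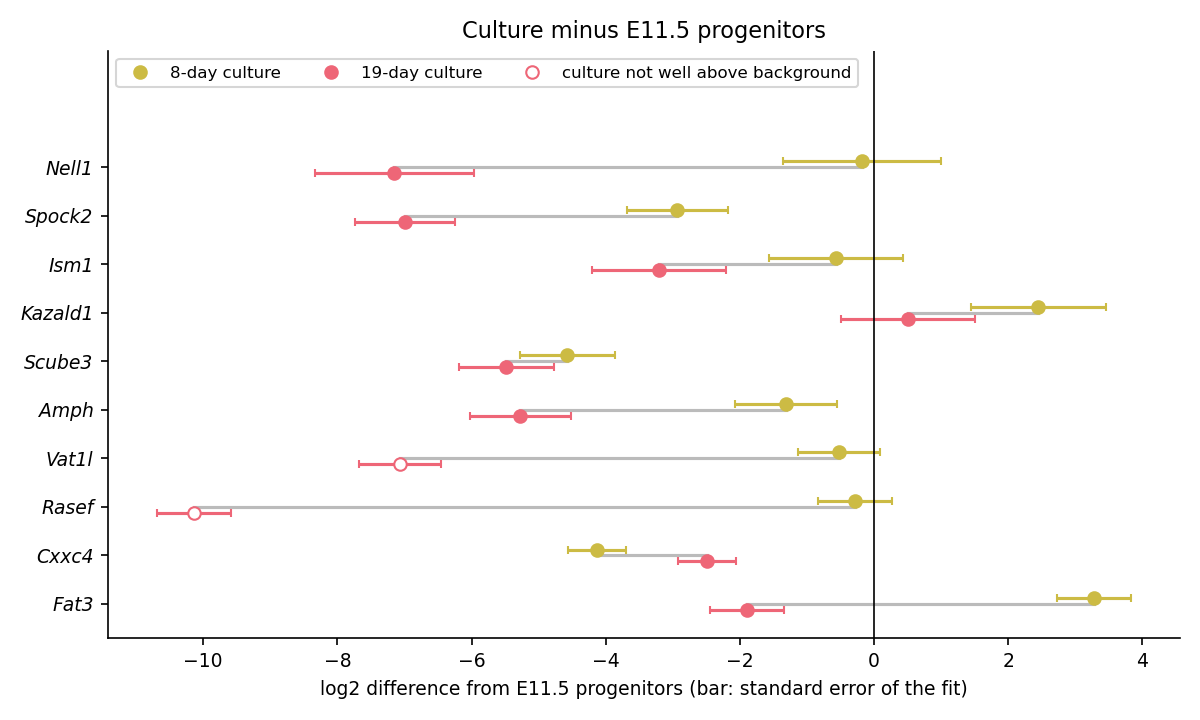
Log2 difference from E11.5 progenitors (x axis) of the 10 genes (y axis) in 8-day and 19-day culture, with bars for the standard error of the fit (n = 2 arrays each) and open points where no culture array was well above background. Fat3 is at 3.28 in 8-day culture and -1.9 in 19-day culture, Spock2 at -2.93 and -6.99, and Cxxc4 is the 1 gene whose 19-day point lies to the right of its 8-day point.

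Slide goes with time in culture in part. All freshly sorted cells and the first 8-day array were on slide 1, and the second 8-day array and both 19-day arrays on slide 2. Against the 8-day array of slide 2 alone, the 19-day arrays kept the sign of all 10 differences, with -5.37 for Fat3, -3.04 for Spock2, -1.85 for Scube3 and 1.95 for Cxxc4. On that slide Rasef was at least 268-fold and Vat1l at least 12.1-fold lower at 19 days, and Nell1 and Amph, each undetected on 1 of the 19-day arrays, differed by -6.68 and -2.62 with that array at its lowest signal above background. On slide 1, the first 8-day array differed from E11.5 progenitors by 3.09 for Fat3, -5.51 for Scube3, -3.82 for Cxxc4 and -1.92 for Spock2, and by -0.07 for Amph and 0.42 for Vat1l. The 19-day and E11.5 arrays share no slide, and with slide as a term their difference was -2.78 for Amph (-5.27 without it), -4.95 for Spock2 (-6.99 without it) and -6.04 for Ism1 (-3.21 without it). Only 8-day culture had arrays on both slides, so the slide term is the gap between its replicates. In every fit with slide as a term, here and below, slide and the spread of these replicates cannot be told apart. From 8 to 19 days, 4 of 12 progenitor markers were lower and 5 of 10 stromal markers higher (limma, adjusted p under 0.05, beside 5.41% of all genes lower and 2.68% higher). With slide as a term 1 of these 4 calls (Meox1) and 3 of these 5 remained, and without 8-day replicate 1 or 2 likewise 1 and 3; without 19-day replicate 1 they were 2 and 3.

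In 8-day culture against E11.5 progenitors, 2 of 12 progenitor markers, Pax2 and Meox1, were lower (limma, adjusted p under 0.05, beside 2.06% of all genes). The other 10 did not pass. Both calls held with slide as a term and without any 1 array. In 19-day culture against E11.5 progenitors, 10 of 12 progenitor markers were lower, and of 10 stromal markers 6 were higher and 2 lower in limma at an adjusted p under 0.05. Of all genes, 9.6% were lower and 7.25% higher in that test. With slide as a term 4 of the 10, 5 of the 6 and 1 of the 2 calls remained. Leaving out any 1 array left 5 to 7 of the 10 progenitor calls, with 5 left without 19-day replicate 1 or without E11.5 replicate 2. Erythroid markers, here globins and other red cell genes, had a mean log2 level of -1.1 to 0.46 in E11.5 progenitors, -3.93 to -3.79 in 8-day culture and -4.27 to -4.03 in 19-day culture. Of 8 measured, 5 were lower in each culture than in E11.5 progenitors (limma, adjusted p under 0.05), 3 of them with slide as a term. The share of all genes lower was 2.06% at 8 days and 9.6% at 19 days. Without 8-day replicates 1 and 2 and E11.5 replicate 1 in turn, 2, 3 and 3 of the 8-day calls remained, and without 19-day replicate 1 3 of the 19-day calls did. The part of these cells in the differences of the 10 genes was not tested.

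At birth, all 10 genes had a higher mean in P0 progenitors than among P0 non-progenitors, and the arrays of 9 did not overlap, beside 33.1% of all genes higher and 23% lower without overlap. The exception was Fat3, on its brighter probe 1. The median log2 difference was 4.75, beside 0.1 over all genes, and the difference was above 4 for Amph, Cxxc4, Nell1, Vat1l, Ism1, Kazald1 and Spock2 and 2.12 ± 0.55 for Rasef. This contrast too helped to choose the genes. P0 non-progenitors are a mixture: 10 of 10 tubule and podocyte markers, 9 of 10 endothelial, 8 of 10 stromal and 8 of 10 ureteric bud markers were lower in P0 progenitors (limma, adjusted p under 0.05, beside 4.17% of all genes). Without any 1 array, 7 to 9, 5 to 7, 6 and 4 to 6 of these calls remained. In the same test 6 of 12 progenitor markers were higher, beside 4.24% of all genes, and 4 to 5 remained without any 1 array. The part of each cell type in the differences of the 10 genes was not tested.

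Between the progenitors of both ages, 8 of 10 genes were higher at P0 without overlap, beside 20.1% of all genes, and Rasef was lower without overlap, beside 32.5%. Cxxc4 overlapped. Differences ran from 0.25 ± 0.61 for Vat1l and 0.62 ± 1.18 for Nell1, within the standard error of the fit, through 1.25 ± 0.76 for Amph and 1.74 ± 0.71 for Scube3 to 2.48 for Ism1 and 5.33 for Kazald1. The median of the 10 genes was 0.81, beside -0.12 over all genes. The level in P0 progenitors helped to choose the genes, so these counts and this median are a description and not a test. In the same comparison 5 of 10 tubule and podocyte markers and 3 of 10 markers of pretubular aggregates and renal vesicles were higher at P0 (limma, adjusted p under 0.05, beside 2.04% of all genes). One of the 5, Podxl, was not well above background on any of the 4 arrays. Leaving out either P0 progenitor array left 3 of the 5 calls and 0 of the 3, and leaving out either E11.5 array left 4 and 2. Their part in the differences of the 10 genes was not tested.

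**Figure D4:**
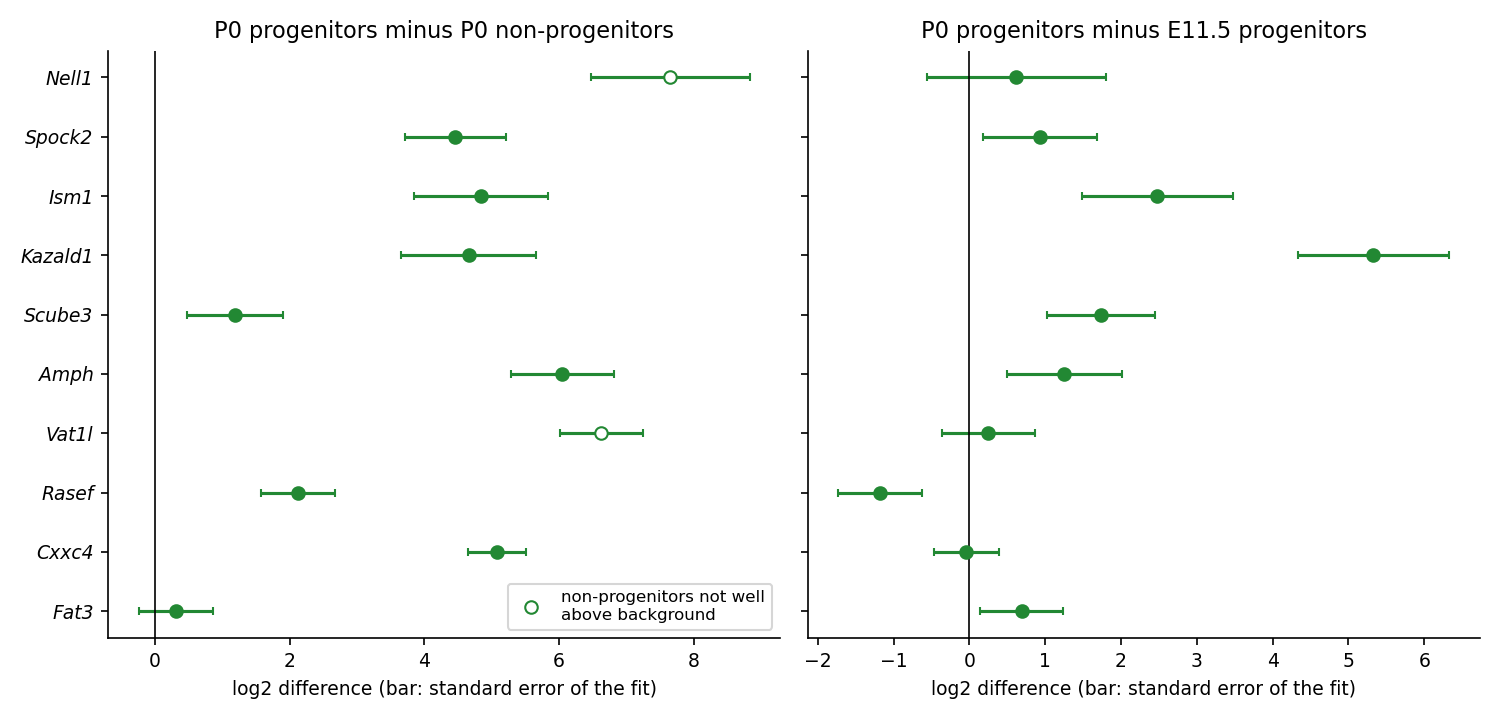
Log2 differences (x axis) of the 10 genes (y axis) between P0 progenitors and P0 non-progenitors on the left and between P0 and E11.5 progenitors on the right, with bars for the standard error of the fit (n = 2 arrays each) and open points where no P0 non-progenitor array was well above background. On the left all 10 points lie above 0 and Fat3 is lowest at 0.31; on the right Kazald1 is highest at 5.33 and Rasef lowest at -1.18.

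The order of the means of the 5 groups was the same for Amph, Nell1, Vat1l, Ism1 and Spock2: P0 progenitors, E11.5 progenitors, 8-day culture, P0 non-progenitors and 19-day culture, from high to low. In that order the first and second groups did not overlap in any of the 5 genes. E11.5 progenitors and 8-day culture overlapped in all but Spock2. The arrays of 8-day culture and P0 non-progenitors overlapped in Ism1 and Spock2, so this step is not resolved for them. P0 non-progenitors and 19-day culture overlapped in Amph, Nell1 and Ism1. For Amph, Nell1, Vat1l and Ism1 the order of these last groups is not resolved. The Nell1 means were -4.47 in P0 non-progenitors and -4.59 in 19-day culture, and only the second 19-day array was well above background. For Vat1l no array of either group was. Likeness of profiles was measured as the root mean square difference over the 10 arrays between log2 levels centred on each gene's mean, among 15845 named genes. By it Amph and Vat1l were each other's closest of the 10 genes, at 1.04, and Nell1 was closest to Vat1l, at 1.3. The gene most like Ism1 was Cited1, a progenitor transcription regulator, at 0.86, and the gene most like Scube3 was Pax2, a kidney transcription factor, at 0.83. Over all genes searched, Amph was closest to Eya4, at 1, and Spock2 to Kif5c, a kinesin gene, at 0.88. Cxxc4 was closest to Rdh10, a retinol dehydrogenase gene, at 1, Kazald1 to Naaa at 0.98 and Rasef to Rbm24 at 1.05. These are descriptions over 10 arrays that share groups and slides.

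Relatives of the secreted proteins lay in both directions in culture. Of 17 genes in that list (the Igfbp, Nell, Ism, Smoc, Spock, Scube and Sparc genes), 15 passed the filter. In 19-day culture against E11.5 progenitors, 6 of 15 rose and 1 fell (limma, adjusted p under 0.05, beside 7.25% of all genes higher and 9.6% lower), with a list median of 0.32. Igfbp7, an IGF-binding-protein relative, had mean log2 levels of 4.26 in 19-day culture, against 1.23 in E11.5 progenitors, a rise of 3.03 ± 0.24 (limma, adjusted p = 0.000467). Sparc, the matrix protein that gives the family of Spock2 its name, rose by 2.94 ± 0.2 (limma, adjusted p = 0.000337). Igfbp3 was at least 145-fold higher (limma, adjusted p = 0.00111) and Sparcl1 at least 43.5-fold higher (limma, adjusted p = 0.00396), and neither was well above background in E11.5 progenitors. The call for Sparcl1 was lost with slide as a term (adjusted p = 0.123). Igfbp5 was the 1 relative that fell, by 6.99 ± 1.16 (limma, adjusted p = 0.00728), a call also lost with slide as a term (adjusted p = 0.163). Nell2 and Spock1, paralogs of Nell1 and Spock2, had differences of -0.92 ± 1.02 and 0.32 ± 0.36 in this comparison (limma, adjusted p = 0.6 and 0.597).

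From 8 to 19 days, 4 of the 15 relatives rose and 1 fell (limma, adjusted p under 0.05, beside 2.68% of all genes higher and 5.41% lower). Igfbp7 and Sparc rose by 3.17 ± 0.24 and 1.74 ± 0.2 (limma, adjusted p = 0.00143 and 0.00444). Igfbp6 was at least 36.9-fold higher in 19-day than in 8-day culture (limma, adjusted p = 0.00426) and was not well above background at 8 days. These 3 rises, and that of Smoc2, held with slide as a term and without any 1 array. Igfbp5 fell by 5.58 ± 1.16 (limma, adjusted p = 0.0282), a call lost with slide as a term (adjusted p = 0.11) and without either 8-day array. In 8-day culture against E11.5 progenitors Igfbp3, Sparcl1 and Sparc rose at an adjusted p under 0.05 in limma, beside 2.77% of all genes higher and 2.06% lower. With slide as a term Igfbp3 (adjusted p = 0.0508) and Sparcl1 (adjusted p = 0.0671) did not pass, and 0 of the 3 calls remained without 8-day replicate 1, 1 without 8-day replicate 2 and 1 without E11.5 replicate 1. At birth, 4 of the 15 were lower in P0 progenitors than in the GFP-negative cells, beside 4.17% of all genes. Among these, Igfbp1 was at least 8.74-fold lower (limma, adjusted p = 0.00306), Smoc2 at least 25.1-fold lower (limma, adjusted p = 0.000927), and Igfbp7 differed by -2.8 ± 0.24 (limma, adjusted p = 0.00129). Leaving out P0 progenitors replicate 1 or either P0 non-progenitor array left 3 of these 4 calls.

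**Figure D5:**
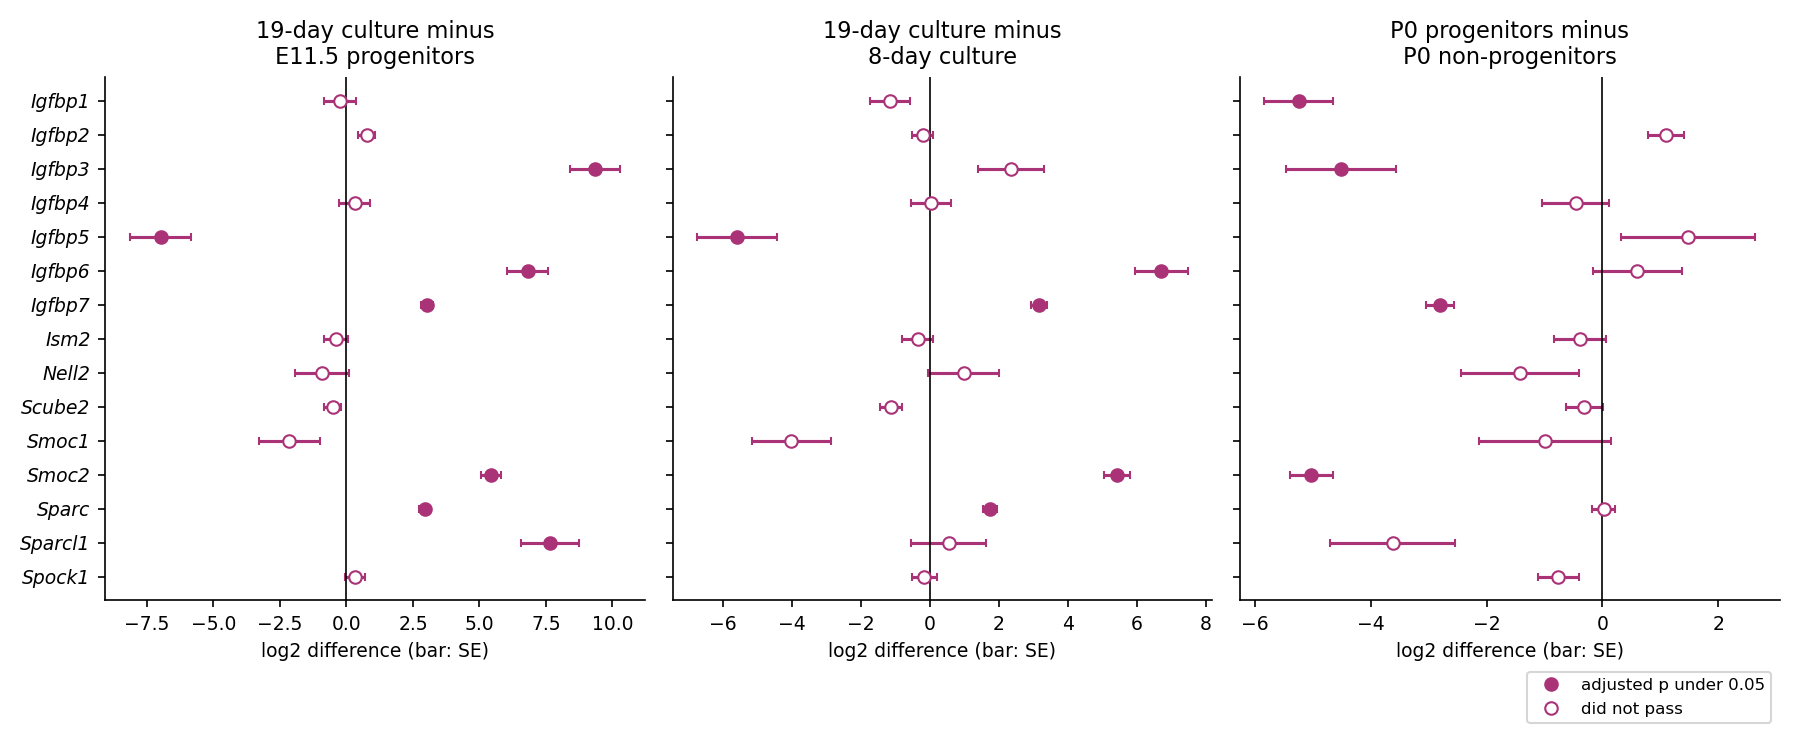
Log2 differences (x axis) of the 15 measured relatives of the secreted genes (y axis) in 19-day culture minus E11.5 progenitors, 19-day minus 8-day culture and P0 progenitors minus P0 non-progenitors, with bars for the standard error of the fit (n = 2 arrays each) and filled points at an adjusted p under 0.05 in limma, plotted as fitted also where a group was not well above background. In 19-day culture against E11.5 progenitors 6 filled points lie above 0 and Igfbp5 lies below it at -6.99.

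Among the 5 relatives of the intracellular genes, Cxxc5 was the 1 that passed in any of the comparisons. Cxxc5 encodes a CXXC protein that, like IDAX, can bind Dishevelled. Its mean log2 level was -0.4 in 19-day culture, against 1.86 in E11.5 progenitors, a fall of 2.25 ± 0.27 (limma, adjusted p = 0.00218). In P0 progenitors it averaged 2.52, against 0.89 in P0 non-progenitors, a rise of 1.63 ± 0.27 (limma, adjusted p = 0.0126), which was lost without P0 progenitors replicate 1, P0 progenitors replicate 2 or P0 non-progenitors replicate 2. Between 8 and 19 days Cxxc5 fell by 1.39 ± 0.27 (limma, adjusted p = 0.0221), lost without 19-day replicate 1 or either 8-day replicate or with slide as a term (adjusted p = 0.0564), while Cxxc4 was higher by 1.64 at 19 days. Vat1, the paralog of Vat1l, had a 19-day against 8-day difference of 0.69 ± 0.65 (limma, adjusted p = 0.606).

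In each list of partners of these proteins, at most 1 gene passed per comparison and direction. Of all genes, 1.93% to 9.6% passed, depending on the comparison and direction. With lists of 9 to 17 genes, these counts are no result about the partners as a group. Of 12 genes that act on Wnt signalling at Dishevelled, only Cxxc5 passed in any comparison, and Dvl1 and Axin2 had differences of -0.69 ± 0.83 and 1.69 ± 0.71 between P0 progenitors and P0 non-progenitors (limma, adjusted p = 0.729 and 0.223). Of 17 measured clathrin endocytosis genes around amphiphysin, Picalm, a clathrin assembly protein, had a log2 difference of -0.84 ± 0.12 in P0 progenitors against P0 non-progenitors (limma, adjusted p = 0.00823), a call lost without either P0 progenitor array or P0 non-progenitors replicate 1. Picalm was also lower in P0 than in E11.5 progenitors, with a difference of -0.66 ± 0.12 (limma, adjusted p = 0.0324, beside 1.93% of all genes lower), a call lost without any 1 of the 4 arrays. Sh3glb1, an endophilin-related BAR protein, was higher in 19-day culture than in E11.5 progenitors by 1 ± 0.18 (limma, adjusted p = 0.01), lost without 19-day replicate 1 or with slide as a term (adjusted p = 0.0617). Among 9 Fat and Dachsous genes and partners, Fat1 was higher in 8-day culture than in E11.5 progenitors by 0.51 ± 0.1 (limma, adjusted p = 0.037), a call lost without any 1 of the 4 arrays, beside a difference of 3.28 for Fat3. From 8 to 19 days Fat4, a cadherin that binds Dachsous proteins, differed by -1.06 ± 0.37 (limma, adjusted p = 0.139), against -5.18 for Fat3.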

How the data were processed

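The authors deposited spot intensities, which the file headers credit to Agilent Feature Extraction (version 11.5.1.1), with background subtracted within each array and no normalization between arrays. Control spots were left out, and outlier spots were set to missing. From log2 intensities the 75th percentile of the same array was subtracted, and spots were averaged to 55681 probes. RefSeq names (GRCm38.p6) were given to 28026 probes by accession, 3418 by symbol and 295 by synonym, and 23942 kept the file's name. A gene was its brightest probe among those well above background on the 2 arrays of any group, which gave 26253 genes. The second P0 progenitor array had been stored with fewer digits and 62 altered names, so names came from another array. Birth is the age in the labels, while deposited data names give E19.5.

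The 5 groups were fitted together with limma 3.58.1 in R 4.3.3 (tables were read with the data.table package, version 1.17.8), with an intensity trend. The spread had 5 residual degrees of freedom and 2.49 from the prior, and p-values were adjusted by Benjamini-Hochberg over all genes within each comparison at 0.05, 2-sided. The 10 genes and all lists were chosen with earlier results of these data known. A test of the 10 genes between 19-day and 8-day culture had been planned and is not given, since loss in culture, the basis of the choice, names no time. Named relatives and partners are, per list and comparison, up to 4 that passed, first those well above background on all 4 arrays and then by size of change, and up to 2 that did not, and the text prints a selection. Axin2, Dvl1, Fat4, Vat1, Six2, Spock1, Nell2, Meox1, Foxd1, Podxl and, where it was the 1 relative that fell, Igfbp5 were named after their values were seen, as was Smoc2 from 8 to 19 days. Tested on simulated data of the 19-day against 8-day comparison, with 50 genes per size among 26253, the fit called 8%, 32%, 68% and 94% of changes of 1, 2, 4 and 6 log2 units, with 6 false calls. The number of arrays limits the precision. Alternatives were quantile normalization, normexp (offset 50), a filter on all arrays or none, the mean of a gene's probes, blocks for replicate number or slide, the compared groups alone and leaving out each array, and fits within a slide were added after seeing the data.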

Additional observations from a re-analysis of the deposited data

Results flagged for a closer look

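On its brighter probe 1, Fat3 lay on opposite sides of E11.5 progenitors at both times in culture. The log2 difference was 3.28 for 8-day culture and -1.9 for 19-day culture. Both arrays of 8-day culture were above both E11.5 arrays, and both of 19-day culture were below them. The difference between these effects was not tested, since loss in culture chose the gene. Within slide 1, the 8-day difference was 3.09, and on slide 2 the 19-day arrays differed from the 8-day array by -5.37. On probe 2 the 8-day arrays were likewise above both E11.5 arrays. The 19-day and E11.5 arrays of probe 2 overlapped and none was well above background, so the fall below E11.5 progenitors is seen on probe 1 only.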

How the results depend on the processing

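Numbers of genes called by limma at an adjusted p under 0.05 are given in the order 19-day against 8-day culture, 8-day culture against E11.5 progenitors, 19-day culture against E11.5 progenitors, P0 progenitors against P0 non-progenitors, and P0 against E11.5 progenitors. They were 2124, 1270, 4424, 2209 and 1042. Leaving out single arrays gave 885 to 1764, 370 to 896, 2376 to 3398, 628 to 869 and 118 to 873; among the arrays that moved a count by over 1.5 times, 8-day replicate 2 gave 885 and 19-day replicate 1 gave 918 in the first comparison, 8-day replicates 1 and 2 gave 370 and 639 and E11.5 replicate 1 gave 720 in the second, and 19-day replicate 1 gave 2376 in the third. In the fourth every array did so, and in the fifth P0 progenitors replicates 1 and 2 gave 122 and 118 and E11.5 replicate 1 gave 669. With the compared groups alone, limma called 0 genes in the first and second comparisons (4991 and 3958 at an unadjusted p under 0.05), 1292 in the third and 445 in the fifth. A slide block gave 634 in the second and 1495 in the third. Slide 2 arrays alone gave 0 in the first (4775 at an unadjusted p under 0.05), and slide 1 arrays alone gave 696 in the second. A filter on all arrays, which tests 19074 genes, gave 1440 in the fourth. Quantile normalization moved the share of higher among called genes from 33.1% to 45.2% in the first, from 50.4% to 35% in the fourth and from 51.4% to 65.1% in the fifth. No causes were tested.

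Replicate numbers did not pair the samples: same-numbered arrays of different groups had correlations of deviations of -0.01 to 0.03 over 10 pairs. With a replicate block, 1910, 1057, 4192, 1982 and 787 genes were called.

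Over all alternatives, 42 of the 50 differences of the 10 genes kept their sign, which the choice of the genes on these values helps to fix. Sizes moved more than signs, and normexp gave differences smaller than the fold bounds printed for Nell1, Vat1l and Rasef. Among the 8 that did not, that of Cxxc4 between P0 and E11.5 progenitors ran from -0.47 to 0.39, and that of Kazald1 between 19-day culture and E11.5 progenitors from -1.27 to 2.29.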
